A study of Rattus norvegicus with 48 samples.

Results

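The rat miRNAs rno-miR-143-3p, rno-miR-145-5p, rno-miR-199a-3p and rno-miR-199a-5p (below without the species prefix rno) were followed across 4 parts of the nephron. They were chosen by name, for being known from mesangial, smooth muscle and mesenchymal cells, and are 4 of the 188 miRNAs of the deposited table. Kidneys came from 3 untreated (naive) male Sprague-Dawley rats aged 6 months, with no genetic change and no agent in any group. Small RNA was sequenced as 50 bp reads after laser capture from frozen sections 8 µm thick, from the proximal tubule (3 libraries, rats 1, 2 and 3), the glomerulus (2 libraries, rats 1 and 3), the thick ascending limb of Henle's loop (3 libraries) and the collecting duct (3 libraries). Tubules were recognised by antibody fluorescence (the proximal tubule by glutathione S-transferase, the thick ascending limb by Tamm-Horsfall protein, the collecting duct by aquaporin-2) and glomeruli by a histochemical stain, so the staining method and the glomerulus cannot be told apart. A captured region holds every cell inside the cut, and fewer cells of a type and less RNA per cell cannot be told apart in such samples.

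Each of the 11 libraries was run on 4 flow cells (A to D). A value below is the normalised read count, averaged over those 4 runs, that the authors scaled with TMM (trimmed mean of M values, a factor that brings most miRNAs of all libraries to a common level). Spacing of the low values gave what 1 read was worth in a run, and from it an estimate of 147996 to 1296995 reads per library over the 188 miRNAs. The glomerulus library of rat 3 was the shallowest and had the lowest summed value, 77457, against 115865 to 255518 in the others. It also had 51 miRNAs at 0 in all 4 runs, against 7 to 36 in the others.

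A miRNA is cut from a hairpin in a longer primary transcript, first in the nucleus and then in the cytoplasm, and either strand of the hairpin (the 5p or the 3p arm) can be loaded into an Argonaute protein. The seed, bases 2 to 8 from the 5′ end, pairs with target mRNAs and lowers their stability and translation. miR-143 and miR-145 come from a shared primary transcript and are best known from smooth muscle, where they favour the contractile state and miR-145 represses the transcription factor Klf4. In the kidney they are associated with vessel walls, mesangial cells and renin-producing cells. miR-199a lies beside miR-214 in the non-coding transcript Dnm3os and is known from mesenchymal tissue and fibroblasts. Both arms of miR-199a are used: Mtor and Met are known targets of the 3p arm, and caveolin-1 of the 5p arm.

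The 4 mature sequences are shown to make plain that they are separate regulators. They are written 5′ to 3′ from RefSeq on the build GRCr8, with the seed in capitals.
miR-143-3p: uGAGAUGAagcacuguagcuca
miR-145-5p: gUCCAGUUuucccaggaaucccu
miR-199a-3p: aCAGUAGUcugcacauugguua
miR-199a-5p: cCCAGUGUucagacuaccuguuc
No seed was shared among the 4, and none was found in another miRNA of the table, of which 172 of 188 could be matched to a RefSeq sequence. On GRCr8, miR-143-3p lies at chr18:57371373-57371394 and miR-145-5p at chr18:57370033-57370055, both on the minus strand. Their hairpins are 1278 bases apart and both lie within the span of the non-coding host gene Carmn. The arms of miR-199a lie on the plus strand in the gene Mir199a2, the 5p arm at chr13:77116255-77116277 and the 3p arm at chr13:77116294-77116315, with 5329 bases between the 3p arm and the Mir214 hairpin. The authors' own build was rn6, so these positions locate the genes but not the authors' alignments.

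The hairpins of miR-143 and miR-145 show which strand was measured, here in capitals.
Mir143: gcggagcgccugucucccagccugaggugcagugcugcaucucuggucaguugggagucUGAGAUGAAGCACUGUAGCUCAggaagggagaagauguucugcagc
Mir145: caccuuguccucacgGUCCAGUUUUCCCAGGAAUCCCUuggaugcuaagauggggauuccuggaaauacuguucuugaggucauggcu
The measured strand fills bases 60 to 81 of the 105 bases of the Mir143 hairpin and bases 16 to 38 of the 88 bases of Mir145. Opposite strands (miR-143-5p and miR-145-3p) were not among the 188 miRNAs.

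The data divided the 4 miRNAs. miR-143-3p and miR-145-5p had their highest values in both glomerulus libraries, above every tubule library, but neither difference passed the test on the values as deposited. miR-199a-3p was lower in the glomerulus than in each tubule segment, by 5.83-fold to 7.28-fold, but without the glomerulus library of rat 3, which held 11 reads of it, none of these differences passed. miR-199a-5p showed no difference between segments that passed the test, with a wide interval.

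**Figure D1:**
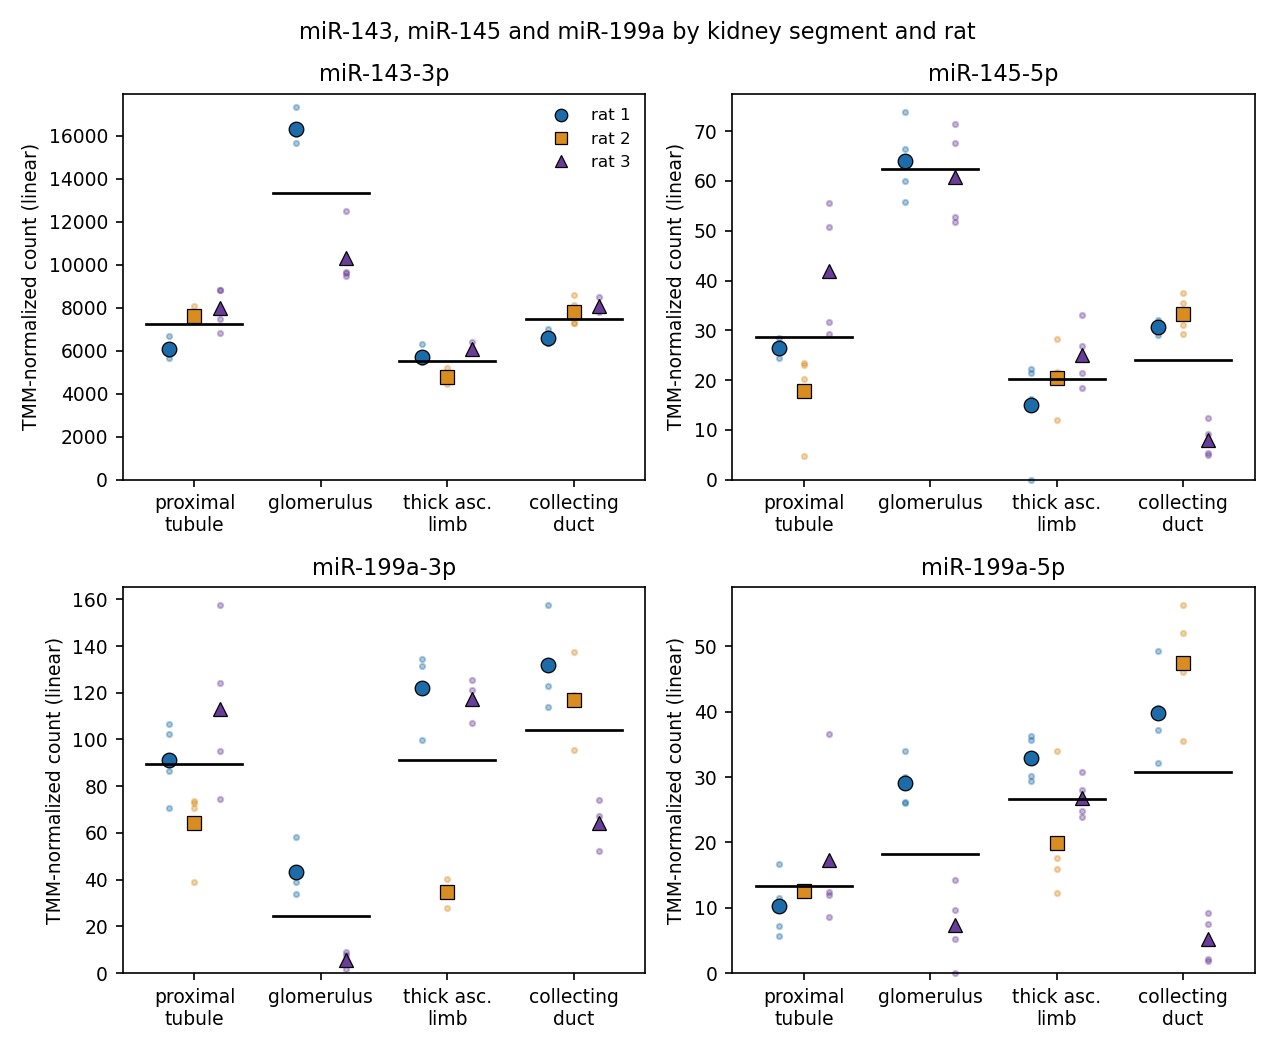
Normalised read count (vertical axis, linear from 0) of the 4 miRNAs in the 4 segments: large symbols are libraries (means over 4 flow cells), small pale points are single runs, symbol shapes are rats, and horizontal lines are segment means. In the glomerulus both libraries of miR-143-3p (16324 and 10321) and of miR-145-5p (64.0 and 60.9) lie above every tubule library, and those of miR-199a-3p (43.3 and 5.68) lie low.

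miR-143-3p was the abundant member. In the glomerulus it read 16324 in rat 1 and 10321 in rat 3. The proximal tubule gave 6093, 7597 and 7992 in rats 1, 2 and 3. In the thick ascending limb the values were 5720, 4760 and 6069, and in the collecting duct 6604, 7820 and 8072. Both glomerulus libraries were above all 9 tubule libraries. Among tubules the thick ascending limb lay below the other segments without overlap, its highest library, 6069, just under the lowest of the proximal tubule, 6093. These values rest on 8769 to 79705 estimated reads per library, so counting error was small beside the spread between rats. As a share of the summed value of its library, miR-143-3p made up 9.89% in the glomerulus of rat 1 and 13.3% in that of rat 3, against 3.06% to 4.37% in tubules. Its rank among all 188 miRNAs was 3 in both glomerulus libraries and between 3 and 6 in the tubule libraries.

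By segment means, miR-143-3p stood at 13323 ± 4245 in the glomerulus (SD, n = 2), 7499 ± 785 in the collecting duct (n = 3), 7227 ± 1002 in the proximal tubule (n = 3) and 5517 ± 678 in the thick ascending limb (n = 3). The miRNAs next to it in the glomerulus were miR-22-3p above, at 16488, and miR-27b-3p below, at 10052. Collecting duct and proximal tubule did not differ beyond their spread. The thick ascending limb lay lower than both by more than the SD of either segment, but no limma difference between tubule segments passed: the largest, thick ascending limb minus collecting duct, was −0.44 on the log2(value + 1) scale (95% interval −1.35 to 0.46, limma adjusted p = 0.77). Proximal tubule minus thick ascending limb was 0.39 with the deposited values and turned to −0.63 after quantile normalisation, where it passed (limma adjusted p = 0.0097), so the order of these segments depended on the scaling.

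Against the mean of the 3 tubule segments, miR-143-3p was 0.95 ± 0.46 higher in the glomerulus (SE, log2(value + 1) scale, a 1.93-fold difference, 95% interval 0.05 to 1.86). The limma test with the rat as a block gave an adjusted p of 0.13 over 188 miRNAs and an unadjusted p of 0.0388, so the difference did not pass at 0.05. The excess was 1.41 in rat 1 and 0.49 in rat 3, and in both rats the glomerulus exceeded all 3 tubule segments. With 1 glomerulus library left out, the fit gave the same 2 within-rat values, 1.41 and 0.49. Such a fit holds a single glomerulus library and cannot measure the spread between glomeruli. With each tubule library left out in turn the limma adjusted p ran from 0.13 to 0.24.

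miR-145-5p was read far less often than its gene neighbour. In the glomerulus it was at 64.0 in rat 1 and 60.9 in rat 3. Proximal tubule values were 26.5, 17.8 and 41.8 in rats 1, 2 and 3. The thick ascending limb gave 15.0, 20.5 and 25.0, and the collecting duct 30.7, 33.3 and 8.01. Here too both glomerulus libraries were above all 9 tubule libraries, and tubule segments overlapped. The glomerulus values rest on 314 and 117 estimated reads, and those of tubules on 27 to 196. In the thick ascending limb of rat 1, flow cell D gave 0 reads, which allows a value of up to 17.6 in that run (3 reads, counting error only).

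Segment means of miR-145-5p were 62.4 ± 2.22 in the glomerulus (SD, n = 2), 28.7 ± 12.1 in the proximal tubule (n = 3), 24.0 ± 13.9 in the collecting duct (n = 3) and 20.1 ± 5.01 in the thick ascending limb (n = 3). In the glomerulus it stood next to miR-196b-5p, at 65.4, and miR-182, at 60.8. The largest difference between tubule segments was 0.62, from the thick ascending limb up to the proximal tubule, with an interval of −0.91 to 2.15 and a limma adjusted p of 0.79. Glomerulus exceeded tubules by 1.61 ± 0.78 (SE, log2(value + 1) scale, 3.06-fold, 95% interval 0.09 to 3.14, limma adjusted p = 0.13, unadjusted p = 0.0382), which did not pass. This excess was close in the paired rats, 1.66 in rat 1 and 1.56 in rat 3.

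miR-199a-3p had the opposite order. In the glomerulus it was at 43.3 in rat 1 and 5.68 in rat 3. The proximal tubule gave 91.4, 64.1 and 113 in rats 1, 2 and 3. Thick ascending limb values were 122, 34.8 and 117, and collecting duct values 132, 117 and 64.1. The glomerulus library of rat 3 was below every other library, and that of rat 1 was above 1 of the 9 tubule libraries, the thick ascending limb of rat 2, so the groups overlapped. Estimated reads were 93 to 884 in tubules, 198 in the glomerulus of rat 1 and only 11 in that of rat 3 (exact Poisson 95% interval 5.49 to 19.7, counting error only).

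Means of miR-199a-3p were 104 ± 35.6 in the collecting duct (SD, n = 3), 91.3 ± 49.0 in the thick ascending limb (n = 3), 89.5 ± 24.4 in the proximal tubule (n = 3) and 24.5 ± 26.6 in the glomerulus (n = 2). Tubule segments did not differ beyond their spread: the largest difference, thick ascending limb minus collecting duct, was −0.32 (log2 scale, interval −1.56 to 0.92, limma adjusted p = 0.87). miR-199a-3p fell by 2.69 ± 0.63 in the glomerulus relative to the tubule mean (SE, log2(value + 1) scale, 6.43-fold lower, 95% interval −3.93 to −1.44, limma adjusted p = 0.00033). It was lower than in all 3 tubule segments of the same rat in both rats, by −1.39 in rat 1 and −3.98 in rat 3. The size and the call rest on the shallow rat 3 glomerulus library. Without it the difference was −1.39 and did not pass, and without that of rat 1 it was −3.98. Each of these refits holds a single glomerulus library and cannot measure the spread between glomeruli. With each tubule library left out in turn the limma adjusted p ran from 0.00034 to 0.0052.

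Pair by pair, miR-199a-3p was lower in the glomerulus than in the proximal tubule by 2.65 ± 0.73 (SE, log2 scale, 6.26-fold, limma adjusted p = 0.0032), where 17.6% of the 188 miRNAs were called. Against the thick ascending limb its difference was −2.54 ± 0.73 (5.83-fold lower, limma adjusted p = 0.0058, with 11.2% called), and against the collecting duct −2.86 ± 0.73 (7.28-fold lower, limma adjusted p = 0.0012, with 14.9% called). Leaving out the rat 3 glomerulus library ended all 3 calls: proximal tubule minus glomerulus was then 1.35, glomerulus minus thick ascending limb −1.25 and glomerulus minus collecting duct −1.57. Omitting rat 3 from the proximal tubules also ended the first call (2.18, limma adjusted p = 0.079). The second was ended by omitting rat 1 (−2.61, adjusted p = 0.056) or rat 3 (−1.91, adjusted p = 0.21) from the thick ascending limbs. With flow cell D alone, with no variance trend and with array weights both of these calls were lost, at adjusted p from 0.057 to 0.086, and the second also with the rat as a random effect (adjusted p = 0.08). With the deposited values it was the only one of the 4 called in any of these 3 pairs. miR-143-3p was called in all 3 with the same total per run (limma adjusted p from 3.4e-05 to 8.6e-05) and with median of ratios (0.00013 to 0.00029). Quantile normalisation called miR-143-3p against the proximal tubule (limma adjusted p = 0.0014) and the collecting duct (0.0057). miR-145-5p was called against the collecting duct under the 3 other scalings (limma adjusted p = 0.022, 0.044 and 0.036) and against the thick ascending limb with the same total (0.04). Between tubule segments 0 of the 4 were called by limma with the deposited values. Of all miRNAs, 7.98% (proximal tubule and thick ascending limb), 10.1% (proximal tubule and collecting duct) and 2.13% (thick ascending limb and collecting duct) were called. An unadjusted p below 0.05 was also met by 0 of the 4, but the share of all miRNAs at that threshold was not counted.

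miR-199a-5p was the least read of the 4. Glomerulus values were 29.0 in rat 1 and 7.31 in rat 3. Proximal tubule values were 10.3, 12.6 and 17.4 in rats 1, 2 and 3, those of the thick ascending limb 32.9, 20.0 and 26.9, and those of the collecting duct 39.7, 47.5 and 5.21. High and low libraries occurred in the glomerulus and in the collecting duct alike, and all segments except the proximal tubule and the thick ascending limb overlapped each other. Of the 11 libraries, 3 had only 16 estimated reads (exact Poisson 95% interval 9.15 to 26.0). Flow cell D of the rat 3 glomerulus gave 0 reads, which allows a value of up to 12.9 in that run.

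Mean values of miR-199a-5p were 30.8 ± 22.5 in the collecting duct (SD, n = 3), 26.6 ± 6.46 in the thick ascending limb (n = 3), 18.2 ± 15.4 in the glomerulus (n = 2) and 13.4 ± 3.63 in the proximal tubule (n = 3). Although proximal tubule values all lay below those of the thick ascending limb, the difference of −1.01 (log2 scale, interval −2.66 to 0.65) did not pass, with a limma adjusted p of 0.57. Glomerulus minus tubules was −0.47 ± 0.84 (SE, log2 scale, 95% interval −2.12 to 1.19, limma adjusted p = 0.77), and the within-rat differences had opposite signs, 0.30 in rat 1 and −1.23 in rat 3. The interval held differences of over 2-fold in either direction. Between rats the SD of log2 values was 1.70 in the glomerulus and 1.76 in the collecting duct.

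**Figure D2:**
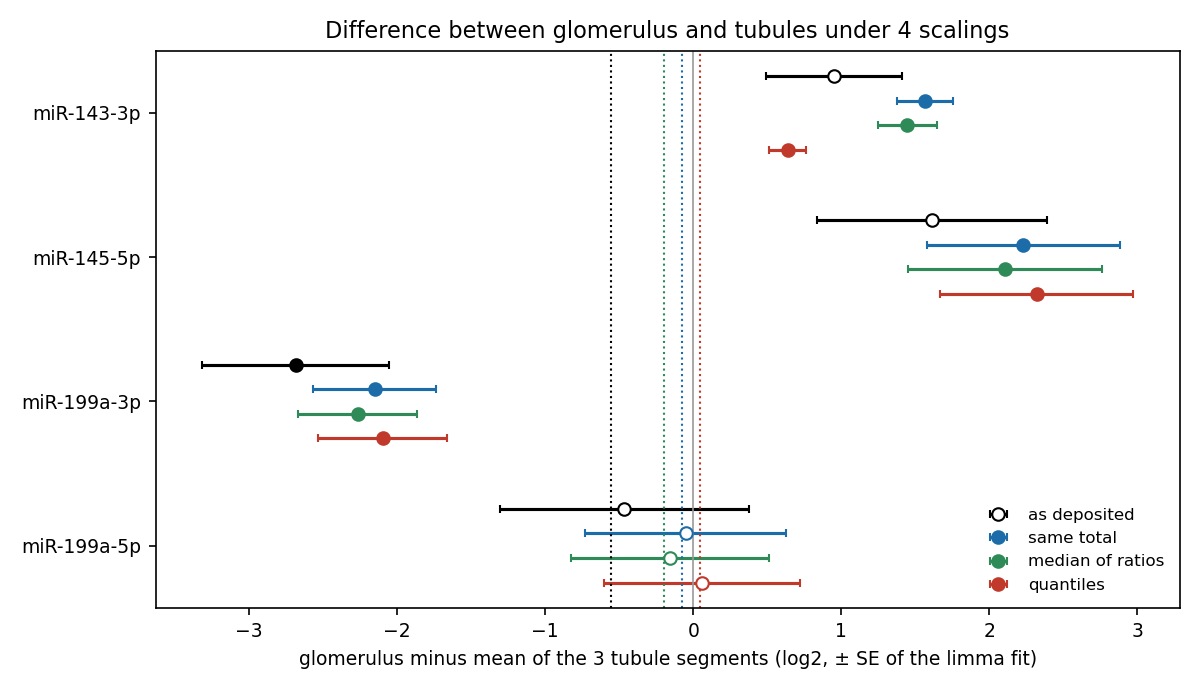
Glomerulus minus the mean of the 3 tubule segments for each miRNA on the log2(value + 1) scale, with bars for the SE of the limma fit, under the authors' values and 3 other scalings of the same table. Filled symbols have a limma adjusted p below 0.05, open ones do not, and dotted lines are the median over all 188 miRNAs. miR-199a-3p is below 0 under each scaling, and miR-143-3p and miR-145-5p lie above 0 throughout, with open symbols for the deposited values.

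Over all 188 miRNAs, an F-test (limma, adjusted p below 0.05) called 24.5% as differing among the 4 segments, and it called 1 of the 4 members. That was miR-199a-3p, with an adjusted p of 0.0029, which lay between 0.00029 and 0.12 over 15 settings that kept all libraries. Without the rat 3 glomerulus library, which leaves a single glomerulus library, miR-199a-3p did not pass. The others had F-test adjusted p of 0.29 (miR-143-3p), 0.31 (miR-145-5p) and 0.74 (miR-199a-5p). In the comparison of glomerulus with tubules 19.7% of all miRNAs were called, 4.79% as higher and 14.9% as lower, and again 1 of the 4 members, in the lower direction. Counted by library values that do not overlap between glomerulus and tubules, miR-143-3p and miR-145-5p were 2 of the 13 miRNAs that were higher in the glomerulus, 6.91% of the table, while 9.57% were lower without overlap. A single miRNA called of 4 is near the shares called by limma, so those counts do not set the members apart from the table.

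The level at which libraries were set against each other bore on miR-143-3p and miR-145-5p. In the deposited values the median difference of all miRNAs, glomerulus minus tubules, was itself −0.56 (log2 scale). Its sign rested on the rat 3 glomerulus library: without that library the median was 0.25, and without that of rat 1 it was −1.47. Relative to the median of −0.56 the differences were 1.51 for miR-143-3p, 2.17 for miR-145-5p, −2.13 for miR-199a-3p and 0.09 for miR-199a-5p. Ordered from the highest difference over all 188 miRNAs, they took places 21, 12, 172 and 86. When each run was set to the same total, miR-143-3p differed by 1.57 (limma adjusted p = 9.3e-06) and miR-145-5p by 2.23 (adjusted p = 0.019). Scaling by the median of ratios gave 1.45 (adjusted p = 4.6e-05) and 2.11 (adjusted p = 0.027), and quantile normalisation 0.64 (adjusted p = 0.0047) and 2.32 (adjusted p = 0.029). Both miRNAs thus passed under each of these 3 scalings and under the deposited one neither did. Over all other settings that kept every library, adjusted p ran from 9.3e-06 to 0.53 for miR-143-3p and from 0.019 to 0.68 for miR-145-5p. miR-199a-3p passed under all 4 scalings, with differences of −2.69, −2.15, −2.27 and −2.10.

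**Figure D3:**
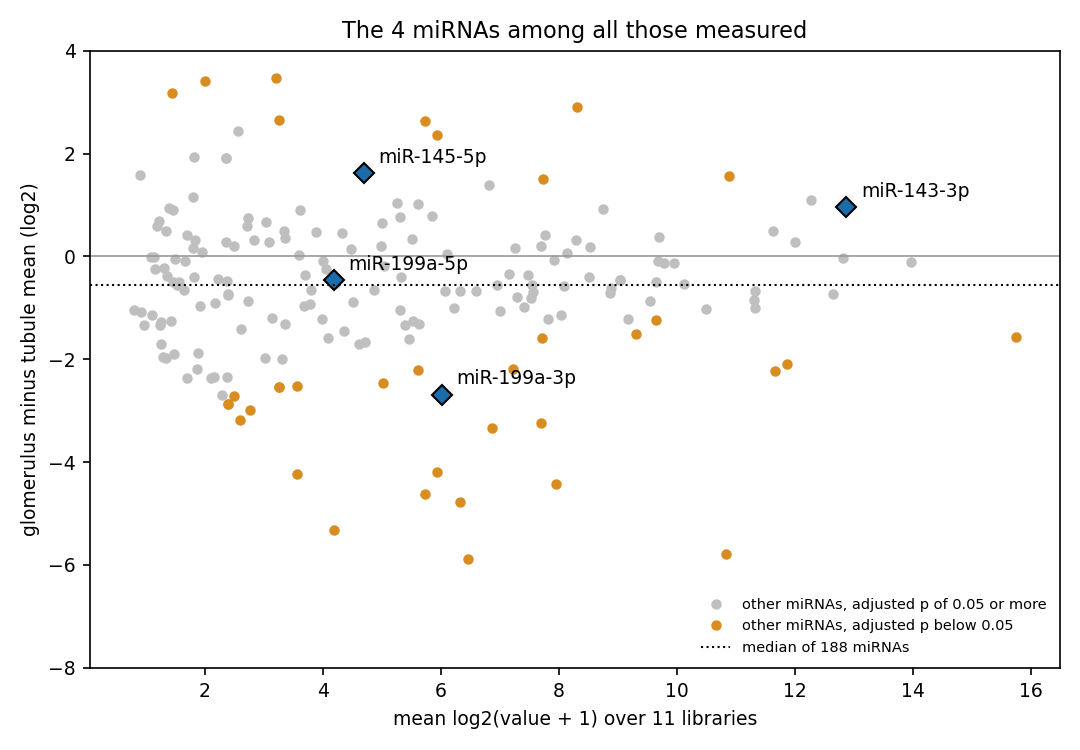
Glomerulus minus tubule difference (vertical axis, log2(value + 1) scale) against mean level (horizontal axis) for all 188 miRNAs, with the 4 members as labelled diamonds, other miRNAs with a limma adjusted p below 0.05 in orange and the rest in grey. The median of all miRNAs is at −0.56, with miR-143-3p at 0.95 among the most abundant miRNAs and miR-199a-3p at −2.69 among those of middle level.

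A ratio of 2 values within 1 run does not depend on how libraries were scaled. The log2 ratios tested here were taken from log2(value + 1), so for low miRNAs they still depend on the scaling. In these tests n counts libraries: the 9 tubule libraries come from 3 rats, and permuting over all 11 treats them as independent, which the permutation within rats does not. miR-143-3p exceeded miR-145-5p by 191-fold to 1008-fold in tubule libraries and by 255-fold and 170-fold in the glomerulus of rats 1 and 3. These ratios overlapped. The mean log2 ratio was 7.68 ± 0.42 (SD, n = 2) in the glomerulus and 8.29 ± 0.82 (n = 9) in tubules, with an exact permutation p of 0.327 (two-sided, adjusted over 3 ratios 0.327). Of the glomerulus ratios, that of rat 1 lay within the range of tubules and that of rat 3 below it. Read numbers of different miRNAs also depend on how each is ligated and copied, and are not a measure of molar amounts.

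miR-143-3p exceeded miR-199a-3p by 377-fold and 1817-fold in the glomerulus of rats 1 and 3, against 46.9-fold to 137-fold in tubules. Glomerulus and tubules did not overlap. The log2 ratio was 9.65 ± 1.55 (SD, n = 2) in the glomerulus and 6.24 ± 0.60 (n = 9) in tubules, a difference of 3.42 with an exact permutation p of 0.0182, the smallest that 55 arrangements can give (adjusted p = 0.0545). After adjustment over 3 ratios it did not pass at 0.05, and no ratio of this design could have passed alone. Permuting within rats, after each rat's tubule mean was subtracted, gave a difference of 3.64 and an adjusted p of 0.0938 (permutation test). With its 16 arrangements no p below 0.05 was possible, so this test could not have passed.

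The 2 arms of miR-199a, which RefSeq places in the same gene, Mir199a2, were compared next. Whether all reads of both arms came from that gene was not tested. The ratio of 3p to 5p values was 1.49 and 0.777 in the glomerulus of rats 1 and 3. In the proximal tubule it was 8.92, 5.09 and 6.50, in the thick ascending limb 3.71, 1.74 and 4.37, and in the collecting duct 3.32, 2.46 and 12.3. All tubule libraries lay above both glomerulus libraries. On the log2(value + 1) scale the mean was 0.31 ± 0.33 (SD, n = 2) in the glomerulus and 2.17 ± 0.88 (n = 9) in tubules, a difference of −1.86 with an exact permutation p of 0.0364 (adjusted p = 0.0545), which did not pass at 0.05. Permuting within rats, the difference was −2.22 and the adjusted p 0.0938 (permutation test), where again no p below 0.05 was possible. From flow cell D alone, where the rat 3 glomerulus held 1 read of the 3p arm and 0 of the 5p arm, the difference was −0.03.

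**Figure D4:**
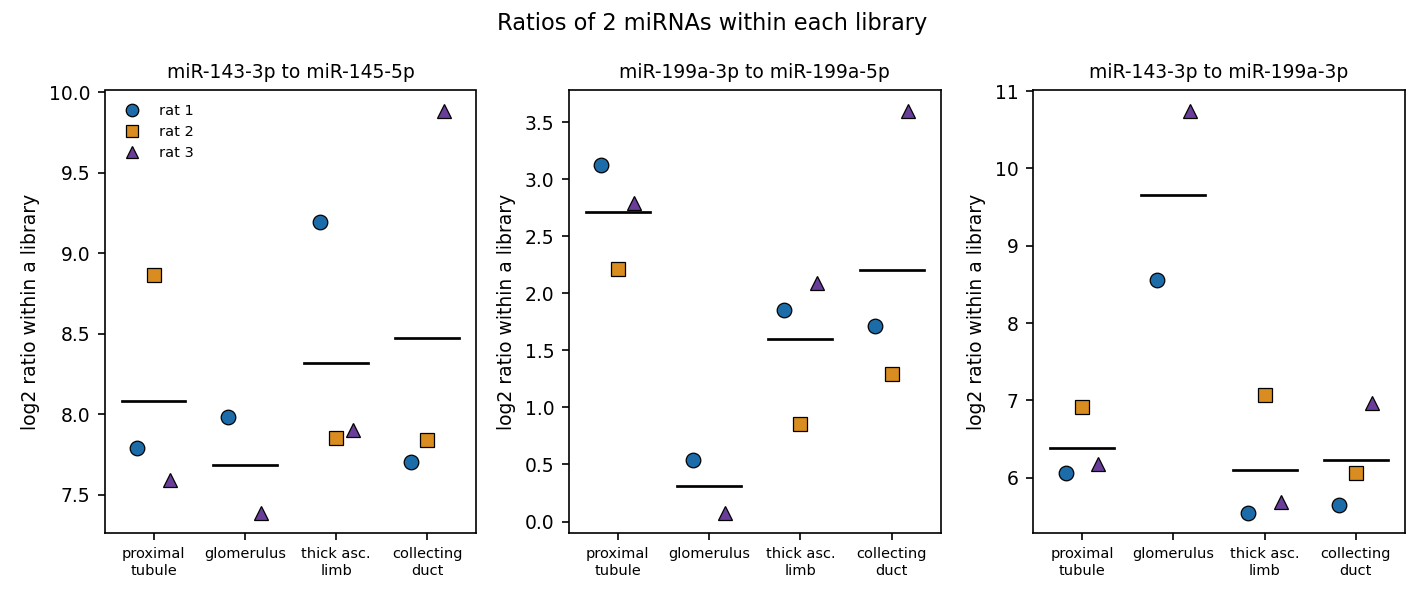
Log2 ratios of 2 miRNAs within a library, by segment, with a symbol shape per rat, lines for segment means and axes that do not start at 0. The ratio of miR-143-3p to miR-145-5p overlaps between glomerulus and tubules, whereas both glomerulus libraries lie above all tubule libraries for miR-143-3p to miR-199a-3p and below them for the arms of miR-199a.

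Counted as reads, the 3p arm made up 58.4% of the 339 miR-199a reads in the glomerulus of rat 1 (exact binomial 95% interval 53.0% to 63.7%). In the glomerulus of rat 3 it made up 40.7% of 27 reads (22.4% to 61.2%). Proximal tubule shares were 90.8%, 84.4% and 88.7% in rats 1, 2 and 3. Those of the thick ascending limb were 78.9%, 66.0% and 81.2%, and those of the collecting duct 77.9%, 71.9% and 93.0%. The lowest tubule share, 66.0% of 141 reads in the thick ascending limb of rat 2, had an interval of 57.5% to 73.7%, which overlaps that of the rat 1 glomerulus. Intervals cover counting error only, since reads copied by PCR are not independent molecules.

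**Figure D5:**
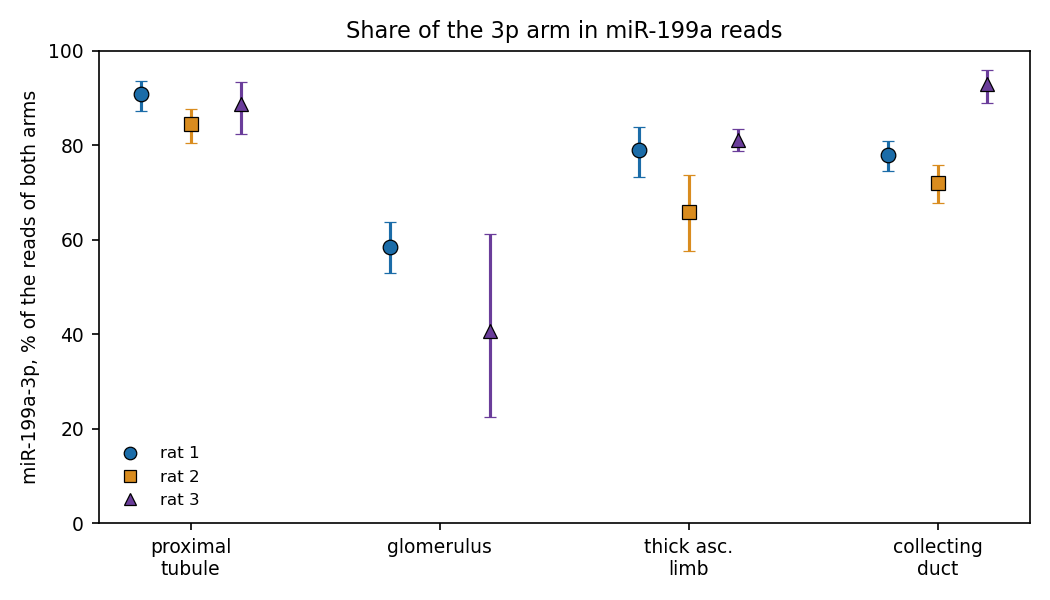
Share of miR-199a reads from the 3p arm in each of the 11 libraries (vertical axis, percent), with exact binomial 95% intervals and a symbol shape per rat. The glomerulus libraries are the lowest, at 58.4% and 40.7%, and the interval is widest for the 27 reads of the rat 3 glomerulus.

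To find miRNAs with a like pattern, the SD of the log2 ratio to each member over the 11 libraries was taken among the 65 miRNAs with a mean value of at least 100; a small SD means that the pair kept its proportion. These are descriptions over libraries that share a scaling, and abundant miRNAs vary less by counting. For miR-143-3p the closest were miR-30d-5p (SD 0.30), miR-181a-5p (0.35), miR-146a-5p (0.37), miR-126a-3p (0.42) and miR-23a-3p (0.44). For miR-145-5p they were miR-126a-5p (0.75), miR-30d-5p (0.75), miR-126a-3p (0.75), miR-146a-5p (0.77) and miR-143-3p itself (0.78). Both arms of miR-126a, a miRNA known from endothelial cells, thus stood in the list of miR-145-5p. Among all 187 possible partners of miR-145-5p, its gene neighbour miR-143-3p took place 9. Among the 187 partners of miR-143-3p, miR-145-5p took place 45.

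The closest to miR-199a-3p was miR-200b-3p (SD 0.58), of an epithelial family, followed by miR-10a-5p (0.75), miR-429 (0.76), let-7c-5p (0.76) and miR-3557-5p (0.80). For miR-199a-5p the list was miR-181c-5p (0.69), miR-130a-3p (0.88), miR-10a-5p (0.88), miR-30e-3p (0.89) and miR-181d-5p (0.91). The arms of miR-199a varied against each other with an SD of 1.09. This put the 5p arm at place 51 among the 187 partners of the 3p arm, and the 3p arm at place 36 among those of the 5p arm. miR-145-5p and miR-199a-3p were the least alike pair of the 4, at 1.89.

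Marker lists for the cells a captured region could hold place these values beside those of other cell types. Of the 7 smooth muscle, pericyte and mesangial markers 2 were among the 188 miRNAs, miR-143-3p and miR-145-5p themselves, and 0 passed in either direction by limma. The muscle miRNAs miR-133a-3p, miR-133b-3p and miR-1-3p were not among the 188. Of 10 mesenchymal markers 4 were measured, 0 of them higher in the glomerulus and 2 lower: miR-199a-3p and miR-218a-5p, which fell by 2.71 ± 1.04 (SE, log2 scale, limma adjusted p = 0.047). miR-218a-5p stood at 0.568 ± 0.803 (SD, n = 2) in the glomerulus and 18.7 ± 9.68 (n = 3) in the proximal tubule. The fourth, miR-140-3p, had a difference of −2.36 ± 1.10 that did not pass (limma adjusted p = 0.11). The summed level of the mesenchymal list was 73.4 and 13.0 in the glomerulus of rats 1 and 3, and 59.4 to 179 in tubules. The 4 measured mesenchymal markers, which include both arms of miR-199a, had a median difference of −2.52, against −0.56 over all 188 miRNAs. Of all miRNAs, 19.7% were called in this comparison, and 14.9% were called as lower. miR-140-3p stood at 0.0 ± 0.0 (SD, n = 2) in the glomerulus. With miR-218a-5p and miR-140-3p at or near 0 there, the size of their differences depends on the 1 added before taking logs. The median of this list therefore cannot decide whether mesenchymal markers as a set were lower.

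Of 5 endothelial markers 3 were measured and 2 rose in the glomerulus, miR-126a-5p by 1.57 ± 0.45 (SE, log2 scale, limma adjusted p = 0.0054) and miR-126a-3p by 1.50 ± 0.52 (adjusted p = 0.027). In this comparison 4.79% of all 188 miRNAs were called as higher. The third, miR-221-3p, had a difference of −1.60 ± 0.85 that did not pass (adjusted p = 0.18), with a mean of 13.3 in the glomerulus against 51.4 (collecting duct), 29.1 (thick ascending limb) and 12.8 (proximal tubule). Their list made up 3.83% and 5.55% of the summed value in the glomerulus of rats 1 and 3, against 0.80% to 1.50% in tubules. Of 6 podocyte markers, all measured, 1 rose, miR-23b-3p, by 2.37 ± 0.64 (limma adjusted p = 0.0026). The other podocyte markers did not pass, with differences from −0.03 (miR-26a-5p) to 1.02 (miR-24-3p) and limma adjusted p from 0.31 to 0.97. Of 8 blood markers 2 were measured and 0 passed in this comparison. The part of endothelial cells, podocytes or blood in the miR-143-3p and miR-145-5p values was not tested.

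Several tubule markers were low in the glomerulus, as was miR-199a-3p, in a comparison where 14.9% of the 188 miRNAs were called as lower. Of the 5 miR-200 miRNAs, which mark epithelium, 4 were measured and all 4 were lower in the glomerulus, with a median of −3.77 and a summed level of 128 in rat 1 and 36.1 in rat 3, against 412 to 1595 in tubules. miR-200b-3p was at 69.3 in the glomerulus of rat 1 and 14.7 in that of rat 3, and miR-429 at 19.8 and 18.4. Of 4 proximal tubule markers 3 were measured and 2 were lower, among them miR-192-5p, at 1088 ± 462 (SD, n = 2) in the glomerulus and 22626 ± 2930 (n = 3) in the proximal tubule. In the other tubule segments miR-192-5p was at 3265 (thick ascending limb) and 1791 (collecting duct). The third, miR-204-5p, had a glomerulus minus tubule difference of 0.64 ± 0.74 that did not pass (limma adjusted p = 0.61). Whether the tubular RNA in a glomerulus library bears on its miR-199a-3p value was not tested.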

How the data were processed

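Small RNA of 11 libraries (44 runs) was analysed. A further 4 runs of a glomerulus library, marked as removed by the submitters, were not analysed here. They carry the label rat 3, as does the kept glomerulus library, and no glomerulus library is labelled rat 2. The block and the within-rat differences take the label of the kept library as given. The deposited values are a signal: read counts that the authors normalised with TMM, per the file's name. Partek 6.0, Bowtie 1.0.0, Bowtie2 2.2.5 and the build rn6 are named in the submitters' processing notes, with no role given. Read numbers were estimated from the step between low values. Of the values up to 30 reads, 88.5% to 100.0% in a run were whole within 0.03 reads; all 132 run values of the 3 low members were whole. Whole reads were not recovered for every miRNA, and a count test was therefore left out. Both limits were set after the values were seen.

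Tests used the mean over a library's 4 runs of log2(value + 1). limma 3.58.1 in R 4.3.3 fitted segment and rat (lmFit, eBayes with a variance trend) to all 188 miRNAs, with two-sided tests and Benjamini-Hochberg adjustment at 0.05. The fit had 5 residual degrees of freedom and gave every miRNA the variance of the trend, which is shared by miRNAs of similar abundance. A miRNA's own spread therefore did not set its SE, interval or p. Between rats, miR-199a-3p had an SD of 2.02 in the glomerulus, against a median of 0.86 over all miRNAs. With no variance trend its glomerulus minus tubule limma adjusted p was 0.03, against 0.00033. Fold changes on the log2(value + 1) scale understate those of low miRNAs. Within a segment each library is a different rat, so n of a segment counts rats; the 9 tubule libraries of the ratio tests come from 3 rats. Ratios were tested by exact permutation (Python 3.11.15), two-sided, with adjustment over 3 ratios. The method was tested on simulated data.

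The rat is a replicate block because segments of 1 rat share the animal. Deviations from the means of segments correlated at a median of 0.03 in the 15 pairs of same-rat libraries (11 above 0) and −0.01 in the 30 from different rats. Alternatives were other pseudocounts, 3 scalings, single flow cells, other block and variance models, a filter on low values, and each library left out. Named miRNAs are the 4 members, the 5 closest to each, their neighbours in rank, and marker list members (all measured members of the muscle and mesenchymal lists, examples of the others, the miRNAs named from these being chosen after their values were seen). Members and lists were chosen with earlier results of these data known.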

Additional observations from a re-analysis of the deposited data

Results flagged for a closer look

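Among the 44 sets of 4 flow-cell runs (4 miRNAs in 11 libraries), 3 held a run apart from the other 3 by Dixon's criterion at the 95% level, which chance meets in about 1 of 20 sets. For miR-143-3p in the glomerulus of rat 3, flow cell C gave 12486, against 9488 to 9684 in the others. Flow cell C was above the library mean of miR-143-3p in 11 of 11 libraries, with a median of 107% of that mean. For miR-199a-3p in the proximal tubule of rat 2, flow cell D gave 39.1, against 70.6 to 73.9. For miR-199a-5p in the proximal tubule of rat 3, flow cell D gave 36.5, against 8.66 to 12.4, in a library with 16 reads of this miRNA in all. Each flow cell was also analysed alone.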

How the results depend on the processing

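For miR-143-3p the F-test adjusted p was 7.7e-05 with the same total per run, 0.00037 with median of ratios and 0.0024 with quantiles (0.012 to 0.53 with each library left out). Its glomerulus minus tubule difference, 1.57, 1.45 and 0.64 under these scalings, also passed with no replicate block (0.96, adjusted p = 0.041) and with the block as a random effect (0.97, adjusted p = 0.041), and ranged from 0.49 to 1.41 with each library left out. For miR-145-5p it passed under the 3 scalings, at 2.23, 2.11 and 2.32. The miR-199a-3p F-test no longer passed with flow cell D alone (adjusted p = 0.093), a random-effect block (0.07), no variance trend (0.12) or array weights (0.082), and ran from 2.6e-07 to 0.26 with each library left out; its glomerulus difference did not pass with array weights (−2.79, adjusted p = 0.05) and ran from −3.98 to −1.39 with each library left out. Array weights gave each glomerulus library 0.248.

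The glomerulus minus tubule difference of miR-199a-5p, never called, changed sign with quantiles (0.0594), flow cell B (0.21) and flow cell C (0.34), and ran from −1.23 to 0.30 with each library left out. Proximal tubule minus glomerulus, −0.11 as deposited, was 1.80 with flow cell D, 0.0138 with no replicate block, 0.10 with a random-effect block and 0.0611 with array weights (−0.93 to 0.65 with each library left out). Glomerulus minus collecting duct was 0.0419 with the same total, 0.0661 with quantiles and 0.38 with flow cell C (−1.63 to 0.15 with each library left out). Differences between tubule segments also changed sign, in 9 of 84 refits for miR-143-3p, 13 of 81 for miR-145-5p, 15 of 81 for miR-199a-3p and 3 of 81 for miR-199a-5p, and 1 was called: proximal tubule minus thick ascending limb of miR-143-3p with quantiles (−0.63, adjusted p = 0.0097). After this was seen they were summarised by the largest difference.

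The F-test called 37.2% of miRNAs with the same total, 14.9% with flow cell D and 40.0% of the 65 with a mean of at least 100 (17.6% to 45.2% with each library left out). The glomerulus comparison called 31.4% with the same total, 29.8% with median of ratios, 11.7% with flow cell D, 6.38% with array weights and 33.8% of those 65 (13.3% to 38.3%). That filter left out 3 of the 4 members. The ratio of miR-199a-3p to miR-199a-5p passed (adjusted p = 0.0273, exact permutation) with a pseudocount of 10 (−1.52), flow cell A (−2.62) and flow cell B (−2.27), and ran from −2.09 to −1.63 with each library left out. The ratio of miR-143-3p to miR-199a-3p passed under the same settings, at 2.75, 3.98 and 3.07 (2.32 to 4.51 with each library left out). For changes of call the cause was not tested. Depth-weighted runs, a setting added after seeing the data, changed no call.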
